A study of Mus musculus with 10 samples.

Results

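The comparison concerns the MycT tumours, one of 2 mouse pancreatic tumour models in the series, and asks how tumours of hosts that drank doxycycline differ from tumours of untreated hosts. It covers 4 of the 10 libraries, 2 untreated and 2 doxycycline, all from the MycT gene table. Every host was an athymic nude mouse, a strain with no thymus and few mature T cells, and every tumour had been transplanted into the pancreas. Hosts of the doxycycline group drank doxycycline at 100 ug/ml with 2.5% sucrose for 14 days, and hosts of the untreated group had 0 days of it. The labels mention sucrose for the doxycycline group alone. They do not say how the transgene of the model is built, or which cells carry it besides the tumour. The study asks what becomes of tumours once their driving oncogene is switched off. Effects of doxycycline or sucrose cannot be told apart here from effects of the oncogene. Total RNA came from frozen pieces of whole tumour, and nothing in the labels says that the 2 tumours of a group came from separate tumour lines. The p-values therefore measure only the spread between these libraries. In tissue RNA, fewer cells of a type and less RNA per cell cannot be told apart.

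MYC is a transcription factor that pairs with MAX and binds E-box sequences, of which CACGTG is the classic form. It is known for driving genes of ribosome production, nucleotide and polyamine synthesis, mitochondrial function and the cell cycle. In pancreatic tumours the malignant epithelium lies within a stroma of fibroblasts, vessels and immune cells, whose genes share the RNA with those of the tumour cells.

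Values are FPKM, that is fragment counts divided by gene length and by library size, and changes are differences of log2(FPKM + 1), doxycycline minus untreated. Genes were tested where at least 2 of the 4 libraries reached 1 FPKM, which left 12834 genes. A gene is said not to overlap where both doxycycline tumours lie above, or both below, both untreated tumours. Its gap is the distance between the nearest libraries of the groups on the log2 scale, so a gap of 1 is 1 log2 unit of FPKM + 1 between them. A gene below 1 FPKM in both tumours of a group was tested only if both tumours of the other group reached 1 FPKM. Its groups then could not overlap, and the counts below, for lists and for all genes, include such genes. Exact permutation of 2 against 2 libraries cannot give a two-sided p below 0.33. Tests came from limma, which borrows the spread across genes, and genes with a Benjamini-Hochberg adjusted p under 0.05 were called. A joint limma fit of all 10 libraries, in which the 6 KrasT tumours help to estimate each gene's spread, was run beside it.

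The libraries differed in more than their treatment. Depth relative to untreated tumour 1, estimated from the smallest steps between low values, was 1.08 in untreated tumour 2, 0.916 in doxycycline tumour 1 and 0.671 in doxycycline tumour 2. The median gene differed by 0.55 log2 units between the untreated tumours, by 0.36 between the doxycycline tumours and by 0.80 between the group means. Doxycycline tumour 1 held skeletal muscle: the 17 muscle markers summed to 12011 FPKM in it and to at most 32.5 FPKM in any other library. Doxycycline tumour 2 held the most Rn45s, the ribosomal RNA precursor, at 20880 FPKM against 1196 to 2231 FPKM elsewhere. Its 20 islet markers summed to 756 FPKM against 23.8 to 44.9 FPKM, and its 27 acinar markers to 3457 FPKM against 642 to 879 FPKM. The epithelial keratins Krt8 (174 and 151 FPKM untreated, 269 and 178 FPKM after doxycycline) and Krt18 (185, 193, 287 and 188 FPKM in the same order) were abundant in all 4 tumours. Pdx1, which marks pancreatic epithelium, stayed between 0.0624 and 2.87 FPKM.

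Of the 12834 genes tested, 4095 (31.9%) were higher without overlap in the doxycycline tumours and 4207 (32.8%) were lower, so that 64.7% of all genes had groups that did not overlap. A gap of 1 or more was reached by 1074 higher genes (8.37%) and 1351 lower genes (10.5%). A gap of 2 or more was reached by 131 (1.02%) and 290 (2.26%), and a gap of 3 or more by 29 (0.226%) and 41 (0.319%). The median log2 change of all tested genes was 0.04. Rescaling the libraries moved this balance: higher genes made up 44.3% of those with a gap of 1 or more as deposited, 57.9% after median-ratio scaling and 82.2% after scaling without ribosomal protein genes and Rn45s. Those scalings moved the median of all genes by 0.18 and 0.55, and quantile normalization moved it by -0.12. Limma on the 4 libraries called 5 genes at an adjusted p under 0.05, 1 higher (0.00779%) and 4 lower (0.0312%), while 4284 genes had an unadjusted p under 0.05. The joint fit called 1053 higher genes (8.2%) and 1660 lower genes (12.9%), and leaving out doxycycline tumour 2 brought its total from 2713 to 805. Leaving out doxycycline tumour 1 brought that total to 845, and leaving out untreated tumour 2 to 1131. Genes below are therefore described by their values and gaps, and a gene is said to have risen or fallen only where limma called it in the 4 libraries.

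**Figure D1:**
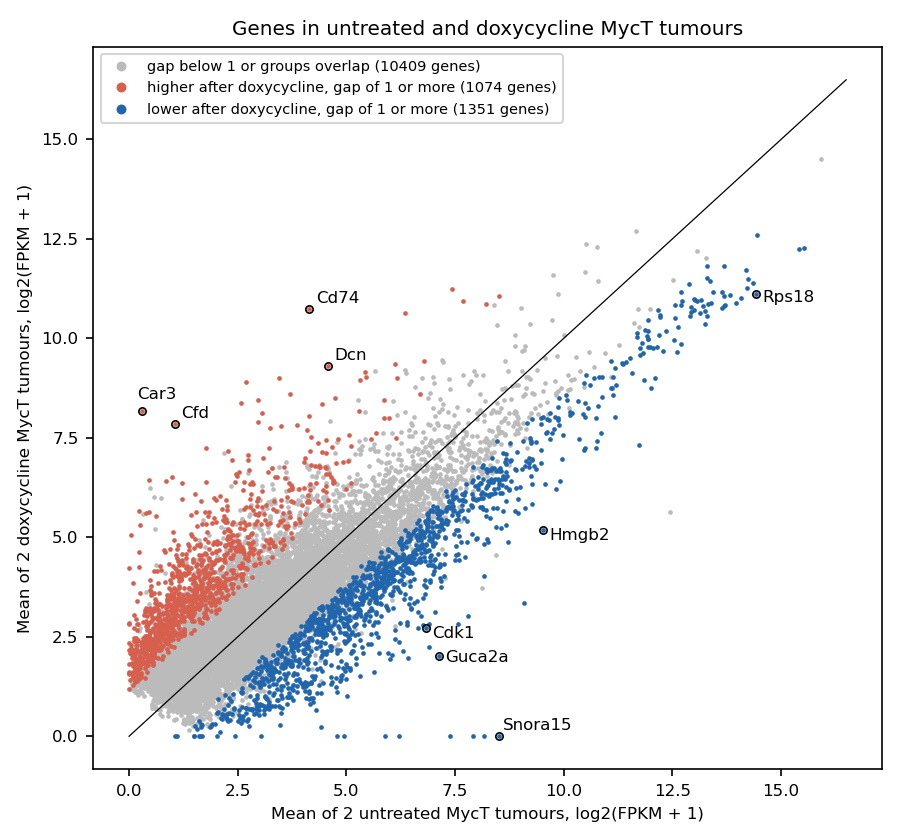
Mean log2(FPKM + 1) of the 2 untreated tumours (x axis) against that of the 2 doxycycline tumours (y axis) for the 12834 genes tested, with the line of equal values. Red points mark the 1074 higher genes and blue points the 1351 lower genes with a gap of 1 or more, and blue points form a band below the line among the most abundant genes.

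The called genes were Car3 and 4 small nucleolar RNAs. Car3, a carbonic anhydrase that fat and muscle express, stood at 0.495 and 0 FPKM in the untreated tumours and at 281 and 291 FPKM in the doxycycline tumours. It rose by 7.88 ± 0.36 (SE) log2 units, adjusted p = 0.020 by limma, and its gap of 7.56 was the largest on the higher side. With a pseudocount of 0.1 limma called 4 genes, 0 of them higher, so the Car3 call did not hold there. The doxycycline tumour without muscle markers held as much Car3 as the one with them, and which tissue the Car3 RNA came from was not tested. Snora15 stood at 463 and 286 FPKM in untreated tumours, Snora69 at 342 and 237 FPKM, Snora3 at 307 and 189 FPKM and Snora7a at 200 and 139 FPKM. All 4 were listed at 0 in both doxycycline tumours, with an adjusted p of 0.020 by limma for each. The table gives no read counts, and a listed 0 in it need not mean low expression: 79 of the 114 small nucleolar RNAs were listed at 0 in all 4 libraries, and so was Hmgcs1, a sterol synthesis enzyme that most cells use. Of the 21 small nucleolar RNAs that could be tested, 14 were lower without overlap, against 32.8% of all genes, and 7 overlapped. The 4 called ones passed the filter only through the untreated tumours, so their groups could not overlap. The count is therefore a description only. Car3, below 1 FPKM in both untreated tumours, passed the filter only through the doxycycline tumours, so its groups could not overlap either. Small nucleolar RNAs of this class guide the modification of ribosomal RNA bases and are cut from introns of host genes. None of the 5 calls held when any 1 of the 4 libraries was left out.

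Beside Car3, the largest gaps on the higher side belonged to genes of fat, stroma, antigen presentation and secretion. Cfd, the complement factor that fat cells secrete, stood at 0.916 and 1.22 FPKM in untreated tumours against 111 and 476 FPKM, a gap of 5.65. Retnla, a secreted protein of alternatively activated macrophages and fat, stood at 0.377 and 0 FPKM against 39.1 and 64.0 FPKM. Dpt, the matrix protein dermatopontin, stood at 1.22 and 0.471 FPKM against 62.0 and 113 FPKM. These genes were near the detection limit in both untreated tumours and abundant in both doxycycline tumours. Wfdc18, a secreted protein with a protease-inhibitor fold, went from 2.85 and 0.406 FPKM to 66.6 and 99.3 FPKM, and the stomach peptide gene Gkn3 from 2.87 and 0 FPKM to 62.3 and 132 FPKM. Cav1, which coats membrane pits called caveolae, stood at 2.19 and 3.77 FPKM against 53.8 and 72.5 FPKM, with a log2 change of 4.03 and an adjusted p of 0.0045 in the joint fit.

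On the lower side, leaving out small RNAs, the largest gap was that of Guca2a, the gut hormone guanylin. It stood at 160 and 120 FPKM in the untreated tumours and at 2.97 and 3.12 FPKM in the doxycycline tumours, a log2 change of -5.11 ± 0.32 (SE of the joint fit) and a gap of 4.88. Hmgb2, a chromatin protein of dividing cells, followed with 724 and 744 FPKM against 34.9 and 35.6 FPKM. Dnph1, a nucleotide hydrolase, stood at 100 and 117 FPKM against 4.42 and 7.97 FPKM, and the aldo-keto reductase Akr1c19 at 126 and 279 FPKM against 12.1 and 2.83 FPKM. The replicates of Hmgb2 and Guca2a lay close to each other within each group. Ube2t, a ubiquitin-conjugating enzyme of DNA crosslink repair, stood at 57.2 and 68.9 FPKM against 2.55 and 3.19 FPKM, and Oip5, which helps to load the centromere histone, at 35.5 and 27.6 FPKM against 0.823 and 1.20 FPKM. Cenpw, a kinetochore protein, stood at 55.6 and 42.1 FPKM against 1.46 and 2.82 FPKM, and Depdc1a at 20.3 and 17.4 FPKM against 0.312 and 0.902 FPKM. The other members of the 15 largest gaps on that side, Pbk, Ect2, Prim1, Cdk1, Mad2l1, Cenpa and the host gene Snhg1, are given with their lists.

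Genes that carry out cell division were lower in both doxycycline tumours throughout. All 58 tested genes of mitosis and the kinetochore were lower without overlap, 53 of them by a gap of 1 or more, against 32.8% and 10.5% of all genes. Their median log2 change was -2.76 against 0.04 for all genes, and the joint fit called all 58 lower. Cdk1, the kinase that starts mitosis, stood at 122 and 104 FPKM in the untreated tumours and at 3.22 and 9.36 FPKM in the doxycycline tumours. Cenpa, the histone that marks the centromere, stood at 334 and 244 FPKM against 9.49 and 24.3 FPKM, and Ect2, which directs the cleavage furrow, at 45.2 and 32.9 FPKM against 1.82 and 1.88 FPKM. In the joint fit Cdk1 had a log2 change of -4.10 ± 0.51 with an adjusted p of 0.0045, and Cenpa one of -4.14 ± 0.60 with 0.0054. The spindle checkpoint gene Mad2l1 went from 99.1 and 111 FPKM to 5.59 and 9.12 FPKM, and the mitotic kinase Pbk from 95.9 and 147 FPKM to 1.71 and 7.15 FPKM. Of these, doxycycline tumour 2 kept higher levels than doxycycline tumour 1 of every gene but Ect2, where they were level. Mki67, the usual stain for cycling cells, stood at 14.1 and 28.7 FPKM against 1.72 and 4.85 FPKM.

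All 47 genes of DNA replication and nucleotide reduction were lower without overlap, 38 by a gap of 1 or more, with a median log2 change of -2.19, and the joint fit called 42 of them. Rrm2, the small subunit of ribonucleotide reductase, stood at 91.1 and 154 FPKM against 3.05 and 11.2 FPKM. Prim1, the primase subunit that starts new strands, stood at 65.5 and 71.5 FPKM against 5.50 and 5.23 FPKM. Gins2, a part of the replicative helicase, stood at 136 and 124 FPKM against 4.50 and 12.7 FPKM. All 28 repair and checkpoint genes were lower without overlap (median -1.53), with a median of -0.94 after scaling without ribosomal protein genes, 14 by a gap of 1 or more, among them Rad51ap1 (28.0 and 34.3 FPKM against 1.27 and 2.19 FPKM), a partner of the recombinase, and Chek1 (6.45 and 8.83 FPKM against 0.297 and 0.913 FPKM), the replication checkpoint kinase. The G1 cyclins, kinases and E2F genes were less uniform: 15 of 22 were lower and 4 higher without overlap, beside 32.8% and 31.9% of all genes. Cdk4 stood at 361 and 369 FPKM against 90.6 and 112 FPKM, and Ccne2 at 4.04 and 7.46 FPKM against 0.337 and 0.268 FPKM. Ccnd2, a D-type cyclin, went the other way, from 2.70 and 0.241 FPKM to 16.9 and 15.9 FPKM. Ccnd1 overlapped, at 37.1 and 184 FPKM untreated and 46.0 and 29.4 FPKM after doxycycline.

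Of 22 CDK inhibitors and genes of the quiescent state, 10 were higher and 4 lower without overlap and 8 overlapped, beside 31.9% and 32.8% of all genes. The median log2 change was 0.86, and it was 0.40 without untreated tumour 1 and 0.53 without doxycycline tumour 1. The inhibitors themselves went both ways. Cdkn1a, the p21 inhibitor, stood at 10.1 and 26.0 FPKM untreated and 44.6 and 35.8 FPKM after doxycycline. Cdkn1b, the p27 inhibitor, stood at 36.8 and 90.7 FPKM against 33.1 and 15.4 FPKM, and Cdkn2c, the p18 inhibitor, at 31.4 and 80.4 FPKM against 21.9 and 23.6 FPKM. Neither Cdkn1a nor Cdkn1b passed the joint fit, with adjusted p of 0.31 and 0.14. The quiescence-linked factors Bhlhe40 (9.62 and 3.88 FPKM against 74.3 and 34.4 FPKM), Klf2 (2.98 and 1.17 FPKM against 10.5 and 34.4 FPKM) and Foxo1 (2.90 and 1.30 FPKM against 7.99 and 6.54 FPKM) were higher in both doxycycline tumours. Among 18 genes of DNA methylation and polycomb, 6 were lower and 4 higher without overlap, near the shares over all genes. Ezh2, the polycomb methyltransferase, stood at 48.1 and 38.3 FPKM against 7.58 and 7.39 FPKM, and Uhrf1, which recruits the maintenance methyltransferase, at 17.1 and 40.8 FPKM against 1.66 and 6.66 FPKM.

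Promoters of division genes are known for CCAAT boxes, bound by NF-Y, and for the CHR element, written TTTGAA or TTTAAA, bound by the DREAM complex. Both motifs were counted on either strand upstream of the start, in the RefSeq promoter table of the GRCm38.p6 build. The window was longer than 150 bases: an ATTGG of Cdk1 began 208 bases before the start. The 3 division genes below, with large gaps and both motifs, are given as examples. Each line gives the 150 bases before the start, 5′ to 3′ on the gene's strand, with both motifs in capitals. A CCAAT box on the other strand reads as ATTGG here. Ect2 lies at chr3:27153879-27154028 on the minus strand, Cdk1 at chr10:69352913-69353062 on the minus strand and Cenpa at chr5:30666736-30666885 on the plus strand.
Ect2: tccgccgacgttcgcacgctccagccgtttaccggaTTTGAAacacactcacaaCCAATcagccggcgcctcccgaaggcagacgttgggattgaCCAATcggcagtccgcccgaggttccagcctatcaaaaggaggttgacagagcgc
Cdk1: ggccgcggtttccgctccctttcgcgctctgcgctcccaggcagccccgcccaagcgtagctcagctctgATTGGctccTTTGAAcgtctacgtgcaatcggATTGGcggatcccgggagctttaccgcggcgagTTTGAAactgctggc
Cenpa: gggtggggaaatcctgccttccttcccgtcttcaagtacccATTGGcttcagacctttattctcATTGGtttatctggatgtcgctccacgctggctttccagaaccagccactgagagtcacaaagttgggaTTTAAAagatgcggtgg
In Cdk1 and Cenpa the last TTTGAA or TTTAAA began 15 and 17 bases before the start. In Ect2 the order differed: TTTGAA began 114 bases before the start, upstream of the CCAAT boxes. Of the 58 mitosis genes, 47 had a promoter in the table. CCAAT stood in 72.3% of them, against 36.2% of the 9614 tested genes with a promoter and 34.5% of all 27025 promoters. TTTGAA or TTTAAA stood in 53.2% against 17.7% and 25.5%, and both motifs together in 44.7% against 6.59% and 9%. In the 39 replication promoters CCAAT stood in 61.5% and TTTGAA or TTTAAA in 17.9%. A match is a string of letters and says nothing of whether a factor was bound there.

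The second large block of lower genes belonged to ribosomes. Of 78 cytosolic ribosomal protein genes, 77 were lower without overlap, 69 by a gap of 1 or more, and the joint fit called 75 lower. Their median log2 change was -2.17 as deposited and -0.62 after quantile normalization, and 32.8% of all genes were lower without overlap. Rps18 stood at 21400 and 22496 FPKM in the untreated tumours and at 2332 and 2144 FPKM in the doxycycline tumours, Rps14 at 14663 and 20728 FPKM against 2108 and 2044 FPKM, and Rpl13a at 15240 and 16537 FPKM against 2036 and 1760 FPKM. The gap between groups was far wider than the distance within them for each of these. The whole set took 49.8% and 47.5% of the summed FPKM of the untreated libraries and 21.9% and 22.6% of the doxycycline libraries. FPKM is scaled to the fragments of the library, so the values of all other genes are relative to a total that holds this block. The summed FPKM was 1.52e+06 and 1.13e+06 in the untreated libraries and 5.57e+05 and 5.46e+05 in the doxycycline libraries. A list lower in FPKM therefore need not have a lower share of that sum. DNA replication genes took 0.167% and 0.241% of it untreated against 0.0669% and 0.0945%, and ribosome biogenesis genes 0.468% and 0.536% against 0.223% and 0.283%. Many copies of ribosomal protein genes exist as pseudogenes, and the sources used here do not say how reads shared with them were counted.

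Genes that build ribosomes were lower as well. Of 60 ribosome biogenesis genes, 57 were lower without overlap and 35 by a gap of 1 or more, against 32.8% and 10.5% of all genes. Their median log2 change was -1.58 as deposited and -0.92 after scaling without ribosomal protein genes, which moved the median of all genes to 0.59. Nop56, a core protein of the nucleolar particles that modify ribosomal RNA, stood at 289 and 312 FPKM against 26.1 and 34.9 FPKM. Dkc1, the enzyme that makes pseudouridine, stood at 59.7 and 61.3 FPKM against 7.98 and 8.82 FPKM, a log2 change of -2.71 ± 0.26 with an adjusted p of 0.0038 in the joint fit. Npm1, the nucleolar chaperone nucleophosmin, stood at 2753 and 1818 FPKM against 366 and 390 FPKM. Ncl, nucleolin, differed less, from 74.3 and 144 FPKM to 37.1 and 56.9 FPKM, a gap of 0.38. Among the 13 tested host genes of small nucleolar RNAs, 11 were lower without overlap, all 11 by a gap of 1 or more, and 1 was higher. Snhg1 stood at 1148 and 717 FPKM against 73.9 and 73.3 FPKM, and Snhg6 at 689 and 348 FPKM against 57.0 and 39.7 FPKM. Snhg18, the exception, stood at 12.1 and 1.42 FPKM against 19.6 and 27.0 FPKM.

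Translation and its supply lines followed in part. Of 43 translation factors, 33 were lower and 1 higher without overlap, and of 22 tRNA synthetase genes 19 were lower and 2 higher, against 32.8% lower and 31.9% higher over all genes. The median log2 change of translation factors was -1.07 as deposited, -0.48 after quantile normalization and -0.39 after scaling without ribosomal protein genes. That of tRNA synthetases was -0.92 as deposited and -0.27 after the latter scaling. As shares of the summed FPKM both lists overlapped between the groups. Translation factors took 1.4103% and 2.5169% untreated against 1.4052% and 1.4959%, and tRNA synthetases 0.0688% and 0.0952% against 0.0868% and 0.0961%. Eef1e1, a subunit of the synthetase complex, stood at 144 and 141 FPKM against 18.8 and 11.4 FPKM, and the initiation factor Eif3i at 664 and 565 FPKM against 125 FPKM in both doxycycline tumours. Of 21 nucleotide synthesis genes, 20 were lower without overlap, 8 by a gap of 1 or more. Nme2, a nucleoside diphosphate kinase, stood at 4170 and 3260 FPKM against 528 and 471 FPKM, and Impdh2, which commits purines to guanine nucleotides, at 167 and 226 FPKM against 45.2 and 54.7 FPKM. Of 26 one-carbon, polyamine and amino acid genes, 18 were lower and 2 higher. Odc1, which starts polyamine synthesis and is a textbook MYC target, stood at 279 and 260 FPKM against 45.3 and 62.1 FPKM, a gap of 2.05. Psat1, an enzyme of serine synthesis, stood at 133 and 173 FPKM against 11.9 and 19.6 FPKM.

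The E-box CACGTG was counted in the same promoter windows, where it is its own reverse complement. It stood in 5.56% of 54 ribosome biogenesis promoters (3 genes), 22.2% of 18 nucleotide synthesis promoters (4 genes) and 7.02% of 57 ribosomal protein promoters, against 8.44% of tested genes with a promoter. The share in ribosome biogenesis promoters lay below that of all tested genes, and MYC is known to bind other sites and forms too. Impdh2 is shown as a gene with the motif and lower values in both doxycycline tumours. Its 150 bases before the start lie at chr9:108560286-108560435 on the plus strand, with CACGTG, in capitals, beginning 110 bases before the start.
Impdh2: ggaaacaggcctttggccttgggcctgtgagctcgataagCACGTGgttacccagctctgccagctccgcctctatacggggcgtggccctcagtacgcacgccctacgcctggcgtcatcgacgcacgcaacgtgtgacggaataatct

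RNA processing and transport genes were also lower. All 35 splicing and Sm protein genes were lower without overlap, 24 by a gap of 1 or more, and so were 27 of 28 genes of nuclear transport, 14 by a gap of 1 or more, against 32.8% and 10.5% of all genes. The splicing median was -1.78 as deposited and -1.10 after scaling without ribosomal protein genes. Lsm7, of the ring around the U6 RNA, stood at 2263 and 1279 FPKM against 146 and 153 FPKM, and Ran, the GTPase that gives transport its direction, at 2108 and 948 FPKM against 147 and 145 FPKM. Of 76 mitochondrial ribosomal protein genes, 73 were lower without overlap, and of 78 respiratory chain genes 69 were lower, 33 by a gap of 1 or more. The mitochondrial ribosome median was -1.44 as deposited and -0.79 after that scaling. The respiratory chain median was -1.30 as deposited, -0.63 after that scaling and -0.57 after quantile normalization. Mrpl12 stood at 522 and 700 FPKM against 76.5 and 111 FPKM, and the cytochrome Cyc1 at 345 and 385 FPKM against 82.4 and 85.3 FPKM. Chaperonin, chaperone and import genes were lower in 30 of 31 cases, 24 by a gap of 1 or more. Tomm20, the import receptor of the outer membrane, stood at 514 and 271 FPKM against 37.0 and 36.1 FPKM, and the chaperonin subunit Cct3 at 509 and 448 FPKM against 73.4 and 76.3 FPKM. Of 34 proteasome genes, 32 were lower without overlap, 8 of them by a gap of 1 or more. Their median was -1.06 as deposited, -0.52 after quantile normalization and -0.39 after scaling without ribosomal protein genes, so its size depends on the scaling. The share of proteasome genes in the summed FPKM overlapped, at 0.56% and 0.547% untreated against 0.554% and 0.479%. That of the respiratory chain was lower without overlap, at 4.24% and 4.07% against 3.93% and 2.81%.

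These lists differ in gene length, and length moved with the groups. The median log2 change was -0.26 in the shortest quartile of genes (up to 2077 bases), -0.01 and 0.05 in the middle quartiles and 0.25 in the longest. Without ribosomal and respiratory chain genes it was -0.14, 0.00, 0.06 and 0.25. Median lengths were 3556 bases for mitosis genes, 1076.5 for cytosolic ribosomal protein genes and 1135 for respiratory chain genes. The part of length in the changes of these and the other lists was not tested.

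Energy and lipid metabolism were mixed. Of 30 genes of glycolysis and the pentose phosphate path, 12 were lower and 5 higher without overlap, with 3 and 2 by a gap of 1 or more. Over all genes 32.8% were lower and 31.9% higher, and 10.5% and 8.37% by a gap of 1 or more, so the lower members lay near the background. The monocarboxylate carrier Slc16a1 stood at 92.6 and 35.5 FPKM against 10.03 and 13.1 FPKM, and Pgk1 at 617 and 596 FPKM against 177 and 153 FPKM. Eno2 was higher, at 2.03 and 1.33 FPKM against 5.32 and 13.9 FPKM. Of 30 genes of cholesterol and fatty acid synthesis, 12 were lower, again near the background, and 3 higher. Idi1, of the sterol branch, stood at 58.3 and 43.5 FPKM against 8.59 and 11.2 FPKM. Scd1, the fatty acid desaturase that is most abundant in fat, stood at 5.30 and 0.854 FPKM against 71.1 and 314 FPKM, and fat cell markers were higher in the same tumours, as given below.

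**Figure D2:**
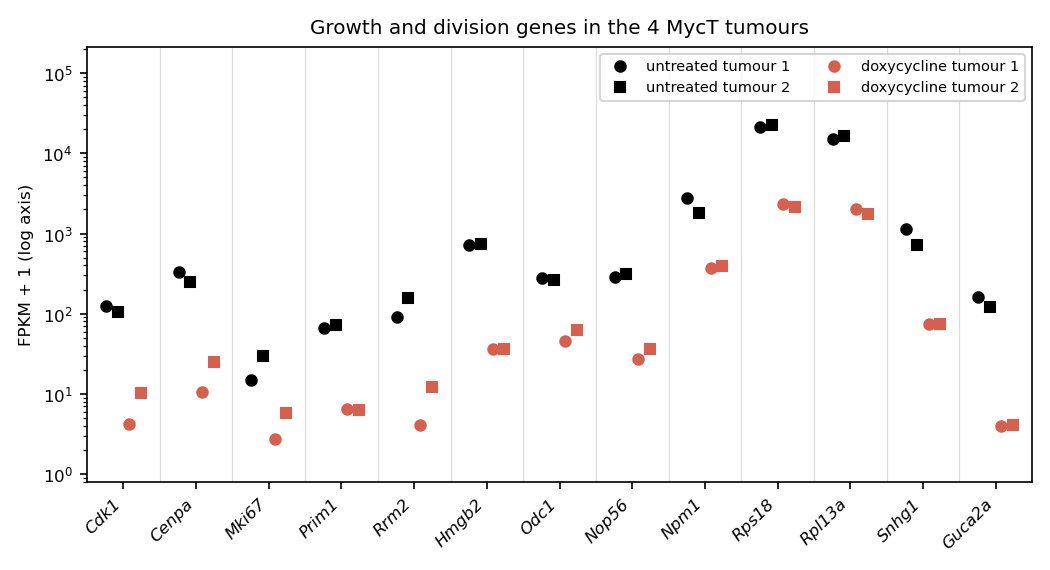
FPKM + 1 on a log axis for 13 genes of division, ribosomes and their supply in the 4 MycT tumours, with black points for untreated and red points for doxycycline libraries (circles for tumour 1, squares for tumour 2). In every gene shown both doxycycline tumours lie below both untreated tumours, and the doxycycline values run from 2332 FPKM (Rps18) down to 1.72 FPKM (Mki67).

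The row for Myc itself read low in untreated tumours, 2.85 and 0.398 FPKM, and higher after doxycycline, 9.54 and 8.98 FPKM. Its log2 change was 2.14 ± 0.57 with an adjusted p of 0.090 in the 4 libraries and of 0.033 in the joint fit. The labels do not give the sequence of the transgene, and reads of a transgene from another species need not fall in this row, so it does not check the labels. Mycn, the neural relative, stood at 0.0910 and 0 FPKM against 5.76 and 1.27 FPKM. Of the 14 tested members of the MYC, MAX and MXD network, 5 were higher and 4 lower without overlap, near the 31.9% and 32.8% of all genes, so the count sets the network apart in neither direction. The values of 2 members follow as a description. Mxd3, a MAX partner of dividing cells, stood at 9.99 and 25.2 FPKM against 1.38 and 1.69 FPKM, and Mxd1, a MAX partner of resting cells, at 1.90 and 1.59 FPKM against 7.93 and 5.13 FPKM.

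Growth factor signalling lists differed in how many of their genes were higher. IGF1 is a secreted ligand that acts through the receptor IGF1R on insulin receptor substrates and PI3 kinase, and IGF binding proteins hold or release it. Of 22 genes of this axis, 12 were higher and 3 lower without overlap and 7 overlapped, beside 31.9% and 32.8% of all genes, and 5 of the higher had a gap of 1 or more (8.37% of all genes). The list's median was 0.74 log2 units, and 1.37 after scaling without ribosomal protein genes. The ligand Igf1 stood at 2.13 and 1.59 FPKM in untreated tumours and at 8.56 and 18.3 FPKM after doxycycline. The receptor Igf1r stood at 0.682 and 1.04 FPKM against 5.38 and 3.20 FPKM. Both had groups that did not overlap, with gaps of 1.61 and 1.04, and the joint fit gave adjusted p of 0.0065 and 0.017. In limma on the 4 libraries their adjusted p were 0.070 and 0.087. Downstream, the PI3 kinase subunit Pik3r1 stood at 2.61 and 4.81 FPKM against 14.1 and 11.4 FPKM. Of the binding proteins, Igfbp6 was higher (14.1 and 1.62 FPKM against 57.6 and 119 FPKM), Igfbp2 was lower (15.1 and 272 FPKM against 10.3 and 9.39 FPKM) and Igfbp3 overlapped (242 and 33.5 FPKM against 230 and 153 FPKM). The protease Htra1, which cleaves IGF binding proteins, stood at 14.8 and 9.35 FPKM against 84.4 and 79.3 FPKM. The sister ligand Igf2 overlapped, with 0.291 and 2.79 FPKM in untreated against 2.40 and 0.495 FPKM in doxycycline tumours, and Igf2r lay between 7.79 and 9.79 FPKM in all 4. Fibroblast and macrophage genes, which are known sources of Igf1 in tissue, were higher in the same tumours as given below, and their part in the Igf1 level was not tested.

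Of 25 genes of gp130, JAK and STAT signalling, which serves interleukin 6 family cytokines, 22 were higher without overlap and 0 lower, 9 by a gap of 1 or more, against 31.9%, 32.8% and 8.37% of all genes (median log2 change 1.38). Il6st, the shared receptor gp130, stood at 5.34 and 4.48 FPKM against 24.8 and 27.1 FPKM, a log2 change of 2.19 ± 0.33 with an adjusted p of 0.0058 in the joint fit. The receptor Osmr stood at 4.57 and 1.10 FPKM against 13.6 and 17.2 FPKM, and the feedback inhibitor Socs3 at 8.78 and 2.83 FPKM against 24.2 and 24.5 FPKM. Receptor and feedback genes thus lay on the same side. Of 22 genes of RAS and ERK feedback, 15 were higher and 4 lower without overlap. Dusp6, the phosphatase of ERK, stood at 8.36 and 1.27 FPKM against 21.4 and 23.7 FPKM, Ier3 at 10.6 and 4.43 FPKM against 47.1 and 48.6 FPKM and Spry2 at 2.04 and 3.54 FPKM against 8.05 and 8.74 FPKM. Of 13 immediate early genes 10 were higher without overlap, but 1 of them by a gap of 1 or more: Zfp36, at 8.99 and 3.84 FPKM against 27.9 and 27.2 FPKM. Of 9 EGF family ligands and ERBB receptors, 3 were higher without overlap, close to the share over all genes, 6 overlapped and 0 had a gap of 1 or more. The receptor Egfr stood at 4.67 and 0.489 FPKM against 10.3 and 8.42 FPKM.

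Genes of survival and stress showed smaller gaps. Of 28 BCL2 family and caspase genes, 14 were higher and 5 lower without overlap, 2 and 1 of them by a gap of 1 or more. Over all genes 31.9% were higher and 32.8% lower, and 8.37% and 10.5% by a gap of 1 or more. The survival gene Bcl2l1 stood at 6.58 and 8.74 FPKM against 26.9 and 25.8 FPKM, and the death gene Bcl2l11 at 4.02 and 1.51 FPKM against 9.60 and 9.22 FPKM, so members of opposite function were both higher. Of 22 genes of the Trp53 list, 9 were higher and 3 lower and 10 overlapped, with Trp53inp1 at 2.82 and 3.66 FPKM against 12.2 and 11.2 FPKM. Of 44 autophagy and lysosome genes, 23 were higher and 8 lower, but 2 of the higher by a gap of 1 or more, among them Tfeb, the master regulator of lysosome genes, at 2.21 and 1.79 FPKM against 7.13 and 10.5 FPKM. Xbp1, of the unfolded protein response and of secretory cells, stood at 25.5 and 9.13 FPKM against 77.5 and 70.7 FPKM, while 10 of its 24 list members were higher and 2 lower and 12 overlapped. In the hypoxia list, 3 of 17 were higher, a smaller share than over all genes, and 7 lower: Bnip3 stood at 117 and 317 FPKM against 33.7 and 29.9 FPKM, and Epas1, the endothelial hypoxia factor, at 2.90 and 1.42 FPKM against 16.9 and 30.2 FPKM. In the antioxidant list, 5 of 23 were higher, again a smaller share, and 7 lower, with the secreted peroxidase Gpx3 at 61.4 and 75.7 FPKM against 505 and 860 FPKM.

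Antigen presentation genes had some of the widest gaps of the comparison. MHC class II molecules show peptides to CD4 T cells on dendritic cells, macrophages and B cells, and on other cells after interferon gamma, under the control of Ciita. All 12 tested genes of the dendritic and MHC class II list were higher without overlap (31.9% of all genes), 10 by a gap of 1 or more (8.37% of all genes), and the joint fit called 11. Cd74, the invariant chain, stood at 47.6 and 5.49 FPKM in the untreated tumours and at 1266 and 2296 FPKM in the doxycycline tumours. H2-Aa stood at 13.6 and 3.21 FPKM against 296 and 415 FPKM, H2-Ab1 at 12.6 and 4.10 FPKM against 244 and 319 FPKM, and H2-Eb1 at 11.9 and 1.79 FPKM against 281 and 396 FPKM. Log2 changes of these 4 genes ran from 5.07 ± 1.12 (H2-Ab1) to 6.59 ± 1.16 (Cd74), with adjusted p between 0.0081 and 0.016 in the joint fit. H2-DMb1, which helps to load peptides, stood at 1.35 and 1.88 FPKM against 26.6 and 26.9 FPKM, and Ciita at 0.0741 and 0 FPKM against 1.84 and 6.61 FPKM. Ciita was below 1 FPKM in both untreated tumours, so once it passed the filter its groups could not overlap. Macrophage markers did not move as far: the 21 of them summed to 5419 and 1916 FPKM untreated and to 4443 and 8933 FPKM after doxycycline, so those sums overlapped.

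Class II promoters are known for an X box followed by a Y box, which is an inverted CCAAT bound by NF-Y. The promoters of 3 class II genes are shown with the same layout, CCAAT or ATTGG in capitals, because their genes had gaps above 3. H2-Eb1 lies at chr17:34305717-34305866 on the plus strand, H2-Aa at chr17:34287824-34287973 on the minus strand and H2-DMb1 at chr17:34153041-34153190 on the plus strand.
H2-Eb1: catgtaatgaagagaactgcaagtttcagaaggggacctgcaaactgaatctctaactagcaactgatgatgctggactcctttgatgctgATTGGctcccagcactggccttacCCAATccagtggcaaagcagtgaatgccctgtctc
H2-Aa: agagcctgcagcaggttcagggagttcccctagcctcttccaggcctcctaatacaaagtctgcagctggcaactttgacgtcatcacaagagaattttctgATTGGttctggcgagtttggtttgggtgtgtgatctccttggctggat
H2-DMb1: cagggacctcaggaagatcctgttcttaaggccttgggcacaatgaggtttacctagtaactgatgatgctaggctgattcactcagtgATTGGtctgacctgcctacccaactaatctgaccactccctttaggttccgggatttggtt
ATTGG began 59, 48 and 61 bases before the start in H2-Eb1, H2-Aa and H2-DMb1. Of 7 class II genes, 5 had a promoter in the table and 4 of these held CCAAT on either strand (80%), against 36.2% of tested genes. This set was added after the values were seen.

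Interferon and class I genes followed in part. Of 30 tested genes, 16 were higher without overlap and 0 lower, 14 by a gap of 1 or more, against 31.9%, 32.8% and 8.37% of all genes, and 14 overlapped. The median log2 change of 2.13 depended on which untreated tumours were used: it was 3.90 without untreated tumour 1 and 0.91 without untreated tumour 2. The peptide transporters Tap1 (5.68 and 0.555 FPKM against 39.5 and 39.3 FPKM) and Tap2 (2.92 and 1.12 FPKM against 28.7 and 31.8 FPKM) were higher, and so was the GTPase Gbp2 (5.55 and 0.508 FPKM against 69.7 and 50.2 FPKM). B2m, the light chain of class I, stood at 512 and 80.4 FPKM against 2141 and 1772 FPKM. The untreated tumours differed by 6.37 times from each other in B2m, where the groups were still apart, as they were not in the 14 genes that overlapped. Of 15 T and NK cell markers tested, 14 were higher without overlap (31.9% of all genes). Gzma, a granzyme, stood at 0.762 and 0 FPKM against 8.44 and 7.47 FPKM and Il2rb at 0.0873 and 0.108 FPKM against 3.81 and 2.30 FPKM. Both genes were below 1 FPKM in both untreated tumours, so once they passed the filter their groups could not overlap. The whole set of 20 summed to 37.4 and 7.74 FPKM untreated and to 155 and 82.8 FPKM after doxycycline. All 12 tested B and plasma cell markers were higher, with Cd79a at 1.10 and 1.92 FPKM against 9.50 and 46.9 FPKM. These levels were low, in hosts that have few T cells. Doxycycline tumour 2, with acinar and islet markers, had the most of the B cell markers and doxycycline tumour 1 the most of the T and NK markers.

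Of 16 genes of complement and of the control of coagulation, 14 were higher without overlap and 1 lower, against 31.9% and 32.8% of all genes. Their median was 2.68 log2 units, and 1.31 without untreated tumour 2. C3 stood at 15.2 and 4.54 FPKM against 80.1 and 562 FPKM, and C4b at 7.44 and 4.61 FPKM against 34.6 and 109 FPKM. Of 29 chemokine ligands, 16 were higher, 1 was lower and 12 overlapped. Cxcl12, made by stroma, stood at 3.11 and 2.09 FPKM against 35.6 and 66.4 FPKM, and Cxcl13, which draws B cells, at 1.52 and 1.13 FPKM against 19.6 and 186 FPKM. Macrophage markers were higher without overlap in 13 of 20 tested genes, with the growth factor receptor Csf1r at 11.1 and 4.07 FPKM against 31.7 and 67.1 FPKM and the mannose receptor Mrc1 at 3.31 and 2.49 FPKM against 16.0 and 23.4 FPKM.

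**Figure D3:**
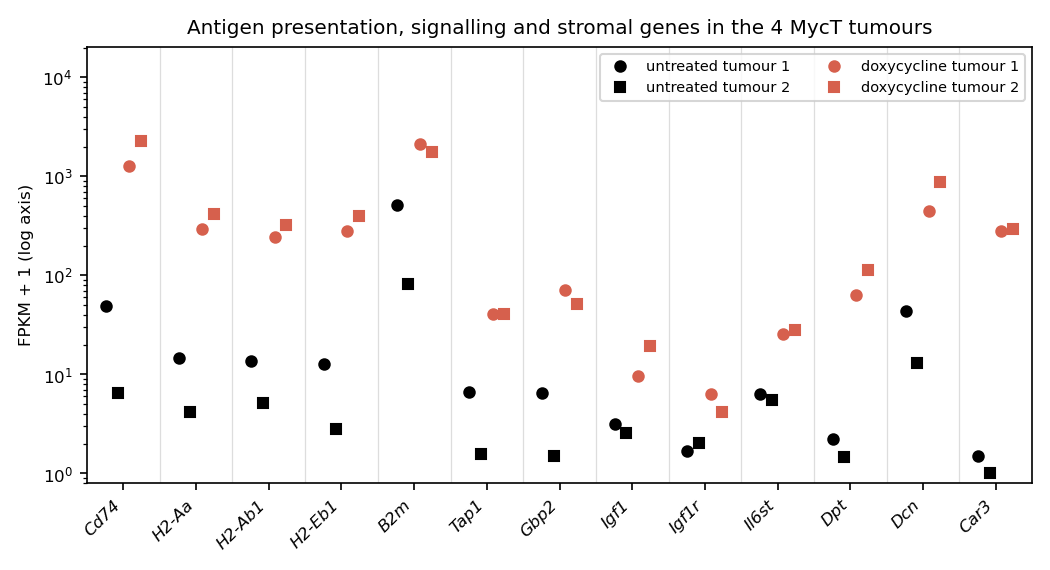
FPKM + 1 on a log axis for 13 genes of antigen presentation, IGF and gp130 signalling and stroma in the 4 MycT tumours, with black points for untreated and red points for doxycycline libraries (circles for tumour 1, squares for tumour 2). In every gene shown both doxycycline tumours lie above both untreated tumours, by a wide margin in Cd74 (1266 and 2296 against 47.6 and 5.49 FPKM) and a narrow one in Igf1r.

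Stromal genes were higher as a block. Of 22 fibroblast markers, 21 were higher without overlap and 0 lower, 13 by a gap of 1 or more, against 31.9%, 32.8% and 8.37% of all genes. Their median log2 change was 2.94, 4.37 without untreated tumour 1 and 1.77 without untreated tumour 2. Of 40 genes of matrix glycoproteins and proteoglycans, 35 were higher and 0 lower, and of 26 tested collagens 21 were higher and 0 lower. Dcn, the proteoglycan decorin, stood at 42.6 and 11.995 FPKM in untreated tumours and at 452 and 877 FPKM after doxycycline. Lum, lumican, stood at 28.0 and 3.38 FPKM against 266 and 182 FPKM, Ogn at 0.528 and 0.777 FPKM against 22.6 and 14.8 FPKM, and the collagen chain Col6a2 at 7.77 and 1.48 FPKM against 47.0 and 77.2 FPKM. Col1a1, the main fibrillar collagen, stood at 55.3 and 4.59 FPKM against 192 and 358 FPKM, a gap of 1.78. For all 5 genes untreated tumour 1 and untreated tumour 2 differed, and both lay below the doxycycline tumours. Matrix enzymes lay on the same side in 13 of 17 cases, with 1 lower: Mmp3 stood at 0.319 and 0.422 FPKM against 23.6 and 101 FPKM, Mmp11 at 2.84 and 2.63 FPKM against 35.6 and 44.4 FPKM, and the inhibitor Timp2 at 27.4 and 13.5 FPKM against 140 and 194 FPKM.

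Pathways that act between stroma and epithelium had higher members and few lower ones. Of 32 genes of TGF-beta and BMP signalling, 16 were higher and 2 lower without overlap, 11 of the higher by a gap of 1 or more, and 14 overlapped. Over all genes 31.9% were higher and 32.8% lower, and 8.37% higher by a gap of 1 or more. The receptor Tgfbr2 stood at 5.28 and 2.73 FPKM against 30.6 and 43.1 FPKM and the ligand Tgfb3 at 7.70 and 2.62 FPKM against 33.8 and 31.3 FPKM. Of 31 genes of Hedgehog, Notch and Wnt signalling, 16 were higher, 2 lower and 13 overlapping, led by secreted Wnt antagonists: Sfrp1 stood at 2.59 and 0.274 FPKM against 16.1 and 28.0 FPKM, and Dkk3 at 7.03 and 0.511 FPKM against 28.4 and 40.3 FPKM. Of 25 genes of epithelial junctions and EMT factors, 11 were higher and 1 lower without overlap, and 13 overlapped. Among them the mesenchymal gene Vim stood at 102 and 32.4 FPKM against 237 and 507 FPKM, and the transcription factor Twist1 at 1.28 and 0.142 FPKM against 11.5 and 4.72 FPKM. Both genes are also expressed by fibroblasts, whose markers were higher in the same tumours.

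Markers of other resident cell types were also higher after doxycycline. Of 20 endothelial markers, 17 were higher without overlap and 0 lower, beside 31.9% and 32.8% of all genes, with Pecam1 at 4.61 and 1.59 FPKM against 12.9 and 27.8 FPKM. The 22 endothelial markers summed to 128 and 63.4 FPKM untreated and to 148 and 349 FPKM after doxycycline, a difference of only 1.16 times between the nearest libraries. Of 15 fat cell markers, 12 were higher, 10 by a gap of 1 or more (8.37% of all genes). Adipoq, adiponectin, stood at 0 and 0.0657 FPKM against 15.4 and 65.9 FPKM, and Retn at 0.197 and 0.182 FPKM against 16.7 and 89.3 FPKM. Adipoq, Retn and Car3 of this list were below 1 FPKM in both untreated tumours. Once they passed the filter their groups could not overlap. Of 8 mesothelial markers, 7 were higher, with Msln, mesothelin, at 6.80 and 1.97 FPKM against 299 and 67.2 FPKM. Krt14 and Krt5, keratins of that list that basal and squamous epithelium also make, stood at 99.0 and 0.185 FPKM against 769 and 347 FPKM and at 60.1 and 0 FPKM against 324 and 172 FPKM. Of 9 islet markers tested, 5 were higher and 4 overlapped, but Ins2 stood at 12.7 FPKM in doxycycline tumour 1 and 557 FPKM in doxycycline tumour 2. How far such neighbouring tissue set the levels of shared genes was not tested.

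**Figure D4:**
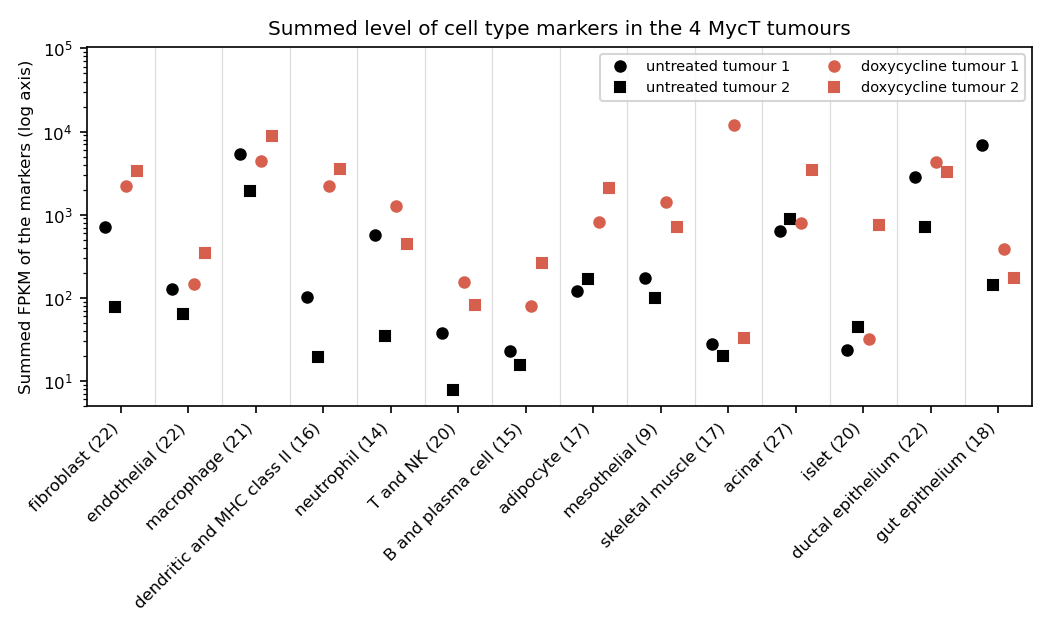
Summed FPKM of the markers of 14 cell types on a log axis in each of the 4 MycT tumours, with the number of markers in brackets (black for untreated, red for doxycycline, circles for tumour 1, squares for tumour 2). Fibroblast, endothelial, MHC class II, T and NK, B cell, fat, mesothelial and ductal sums are higher in both doxycycline tumours than in both untreated tumours. Muscle is high in doxycycline tumour 1 alone and islet markers in doxycycline tumour 2 alone.

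Levels of epithelial and secretory genes in the whole-tumour RNA varied between animals. Of 22 ductal markers, 5 were higher without overlap and 0 lower, and the other 17 overlapped, so fewer were higher than the 31.9% over all genes. Their median log2 change was 1.23. Their summed level did not overlap, at 2860 and 704 FPKM untreated and 4329 and 3276 FPKM after doxycycline. Sox9, the duct and progenitor factor, stood at 1.45 and 1.28 FPKM against 12.4 and 6.63 FPKM, with an adjusted p of 0.017 in the joint fit. Pancreatic and gut lineage factors were higher in 4 of 17 cases and lower in 2 without overlap, beside 31.9% and 32.8% of all genes. The other 11 overlapped. Gata6, a factor of pancreas and foregut, stood at 1.38 and 0.0673 FPKM against 5.77 and 8.64 FPKM. Progenitor markers were higher without overlap in 7 of 16 cases and lower in 1, and 8 overlapped. Dclk1, a marker of tuft and progenitor-like cells, stood at 0.309 and 0.954 FPKM against 9.18 and 5.65 FPKM, and Cd44 at 25.4 and 12.2 FPKM against 49.0 and 44.5 FPKM. Of 25 acinar markers 11 were higher without overlap, 3 by a gap of 1 or more, but the joint fit called 0, and their sum of 784 FPKM in doxycycline tumour 1 lay within the untreated range of 642 to 879 FPKM. The untreated tumours were unlike each other in secretory genes, which were picked out here after their values were seen. Tff3, a trefoil factor of mucus cells, stood at 5997 FPKM in untreated tumour 1 and 11.8 FPKM in untreated tumour 2, and Agr2, a chaperone of mucus cells, at 303 and 0.123 FPKM. The inhibitor gene Cdkn2a stood at 301 and 4.31 FPKM in the same tumours and at 144 and 35.0 FPKM after doxycycline.

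**Figure D5:**
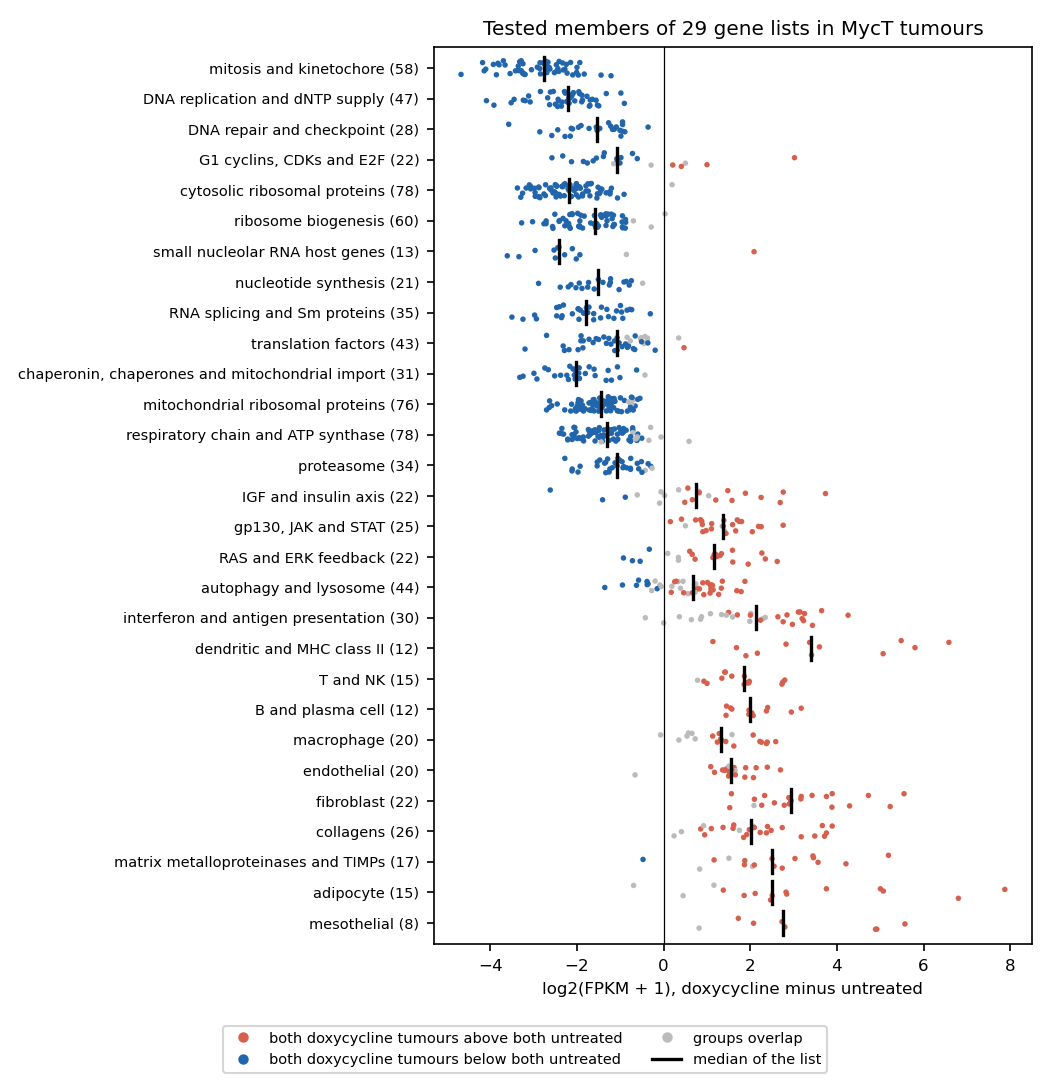
Log2 change of every tested member of 29 gene lists (points) with the list's median (black bar) and the number tested in brackets. Blue points, lower without overlap, fill the division, ribosome and mitochondrial lists (median -2.76 for mitosis), and red points, higher without overlap, fill the immune and stromal lists (median 3.39 for MHC class II).

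The change in MycT was set against the change in KrasT, the other model, by the interaction term of the joint limma fit, on 12073 genes expressed in both. It called 24 genes whose MycT change lay above the KrasT change (0.199%) and 5 whose MycT change lay below it (0.0414%). With 2406 genes at an unadjusted p under 0.05, most differences between models did not pass the correction. Dusp6, the phosphatase of ERK, was among those with the MycT change above, with a log2 change of 2.35 in MycT and of -2.67 in KrasT. In KrasT it stood at 109 to 201 FPKM untreated and 17.7 to 30.5 FPKM after doxycycline. Its doxycycline levels in MycT, 21.4 and 23.7 FPKM, lay within that range of doxycycline levels in KrasT, and the untreated levels differed between models. F2r, the thrombin receptor, was also higher after doxycycline in MycT and lower in KrasT. It stood at 6.61 and 3.89 FPKM in untreated and 14.8 and 14.9 FPKM in doxycycline MycT tumours. In KrasT it stood at 156 to 234 FPKM and 23.7 to 36.3 FPKM, so its doxycycline levels in MycT lay below those in KrasT. Tubb2b, a tubulin, stood at 1.44 and 0.548 FPKM against 9.05 and 8.39 FPKM in MycT and at 43.1 to 51.7 FPKM against 10.3 to 16.2 FPKM in KrasT. Bex1, a small adaptor of neural and endocrine cells, went the other way, from 83.0 and 174 FPKM to 14.9 and 12.7 FPKM in MycT and from 0.197 to 1.97 FPKM to 7.22 to 17.2 FPKM in KrasT. In these 4 genes the untreated tumours of the models stood further apart than the doxycycline tumours did.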

How the data were processed

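RNA from frozen MycT tumours was sequenced on an Illumina instrument after a TruSeq RNA library kit, per the labels' protocols. The submitters' processing notes name cutadapt, TopHat and the mm9 build, and say no more. The table holds FPKM as the authors deposited them, and no scaling beyond FPKM is stated. Not given in the sources used here are the program and annotation that gave the FPKM and its use of strand. The depth in reads is unknown. Of 23951 rows, 27 had dates in place of gene symbols and were not used.

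Groups came from the labels, 2 libraries each. Columns were matched by animal number. In 1 untreated column 2 digits are exchanged against the label, and it was taken as untreated tumour 1 because no other sample was left. Untreated tumour 2 and doxycycline tumours 1 and 2 follow the labels' order.

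Genes with at least 1 FPKM in at least 2 libraries were tested on log2(FPKM + 1), with a pseudocount of 1, in limma 3.58.1 under R 4.3.3 (two-sided, with a trend in eBayes, Benjamini-Hochberg adjustment, threshold 0.05). The interaction with KrasT and the joint fit used all 10 libraries of both tables. Each table was normalized by the authors as deposited, so levels set across tables carry that limit. The steps were tested on simulated data. Standard errors beside joint-fit p-values are those of the joint fit. Gene lengths came from a GRCm38 gene table (99.5% of tested genes matched), and promoters from RefSeq. Python 3.11.15 with matplotlib 3.10.9 drew the figures.

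Members and the 69 gene lists (49 pathway and 20 marker lists) were chosen with earlier results of these data known. The lists were described by counts and medians and were not tested. Named genes were the 15 largest gaps per side whose higher group averaged 5 FPKM or more (no predicted genes, clones or small RNAs), a set of fixed genes that includes Myc, Igf1, Igf1r, Mki67, Cdkn1a, Cdkn1b and Odc1, genes called by limma, up to 5 members of each list per side by gap and up to 6 interaction genes per side. Some genes the rule names are not reported here. B2m, Ciita, Krt18, Pdx1, Tff3, Agr2, Cdkn2a and Igfbp3 were named outside that rule, after their values were seen.

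Alternatives were a pseudocount of 0.1, no filter, a mean of at least 5 FPKM, median-ratio scaling, quantile normalization, scaling without ribosomal protein genes and Rn45s, eBayes without a trend, the joint fit and leaving out each library. Leaving out libraries from the joint fit and the class II promoter set were added after seeing the data.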

Additional observations from a re-analysis of the deposited data

Results flagged for a closer look

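In 9 named genes the limma interaction found that the change after doxycycline differed between MycT and KrasT. The difference, MycT minus KrasT on the log2(FPKM + 1) scale, was 6.01 for the decoy receptor Tnfrsf23, 5.77 for the protease Adamdec1, 5.02 for Dusp6, 4.68 for the protease Prss12, 4.17 for Tubb2b and 4.06 for F2r. In these 6 genes the MycT change was positive and the KrasT change negative. Tnfrsf23 had a log2 change of 2.00 in MycT (2.31 and 0.0872 FPKM against 5.78 and 7.44 FPKM) and of -4.02 in KrasT (49.5 to 137 FPKM against 3.17 to 7.52 FPKM). The difference was -5.62 for Bex1, -3.50 for the amino acid carrier Slc43a1 and -3.13 for Dtd1, which removes D-amino acids from tRNA. In these 3 genes the MycT change was negative and the KrasT change positive. Slc43a1 stood at 10.8 and 11.3 FPKM against 2.42 and 3.52 FPKM in MycT and at 0.148 to 0.700 FPKM against 2.40 to 5.27 FPKM in KrasT. Adjusted p ran from 0.018 (Tubb2b) to 0.049 (Dusp6). Each difference kept its direction in 10 of 10 fits without 1 library and each call held in 2 of 10. No explanation was tested.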

How the results depend on the processing

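Limma on the 4 libraries called 5 genes, and with a pseudocount of 0.1 it called 4, all of them lower. It called 0 with no filter on low values (4625 genes at an unadjusted p under 0.05), 10 at a mean of at least 5 FPKM, 1477 after scaling without ribosomal protein genes and Rn45s (80.2% of them higher, against 20% as deposited) and 2713 in the joint fit. Leaving out any 1 library gave 0 calls, with 1984 to 4793 genes at an unadjusted p under 0.05. The joint fit called between 805 and 3743 genes without 1 library. Higher genes with a gap of 1 or more numbered 1074, against 671 at a mean of at least 5 FPKM, 2444 after scaling without ribosomal protein genes, and 1550 to 2672 without 1 library, where the gap spans 3 libraries. The lower genes numbered 1351, against 531 after that scaling and 1752 to 2077 without 1 library. The 29 differences between models became 18 with a pseudocount of 0.1, 17 after quantile normalization and between 0 and 1522 without 1 library. The count was 1522 without KrasT untreated replicate 1, 533 without untreated MycT tumour 1 and 0 without any of the other 3 MycT libraries. The cause was not tested.

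All 18 list medians kept their sign under these alternatives, but not their size. Scaling without ribosomal protein genes moved the median of all genes by 0.55, and the list medians below include that shift. After that scaling 5 of 18 list medians moved by more than the SD of their members' log2 changes. Cytosolic ribosomal proteins went to -1.49, mitochondrial ribosomal proteins to -0.79, the respiratory chain to -0.63, the proteasome to -0.39 and tRNA synthetases to -0.27. After quantile normalization 2 list medians moved by more than that SD, cytosolic ribosomal proteins to -0.62 and the respiratory chain to -0.57. Without untreated tumour 1, 2 did, interferon and antigen presentation to 3.90 and fibroblast markers to 4.37, and without untreated tumour 2 the same 2 lists went to 0.91 and 1.77. Of the 157 genes named with values, those that changed sign were genes whose groups overlap. Igf2r turned to 0.14 after median-ratio scaling and 0.55 after scaling without ribosomal protein genes. Igf2 turned to -0.36 and Pdx1 to -0.074 after quantile normalization. Without 1 library in turn, log2 changes ran from -3.57 to 4.51 in Agr2, from -2.06 to 3.77 in Cdkn2a, from -0.75 to 0.80 in Igf2, from -0.20 to 0.084 in Igf2r and from -0.37 to 2.45 in Igfbp3. They ran from -0.0039 to 0.60 in Krt18, from -0.43 to 1.39 in Pdx1, from -0.54 to 3.59 in Rn45s and from -8.82 to 0.046 in Tff3.

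Each group has 2 libraries, and doxycycline tumour 1 holds muscle. Depth in reads is unknown, so the counting error of low values such as those of Ciita or Il2rb cannot be given. No paired analysis was possible because every tumour carries a different animal number, so nothing ties an untreated to a doxycycline library.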
